A study of Mus musculus with 4 samples.

Results

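The genes described are 10 that write, read, erase or feed into DNA methylation: the DNA methyltransferase genes Dnmt1, Dnmt3a and Dnmt3b, the DNMT1 partner gene Uhrf1, the TET dioxygenase genes Tet1, Tet2 and Tet3, the glycosylase gene Mbd4, and the isocitrate dehydrogenase genes Idh1 and Idh2. They were chosen by symbol, as genes of DNA methylation and genes often mutated in myeloid leukaemia; the rule uses no measured value, but it was set with earlier results of these data known. All 10 of 10 were found among the 23240 gene rows of the table, and 9 of them (all but Tet1) reached the mean of 1 RPKM that was required for testing. RPKM is a read count scaled by gene length and by the mapped reads of the library. The 9 genes exceeded 1 RPKM in every library, so none entered the test only through the group in which it was higher.

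The series holds 4 RNA-seq libraries, made from total RNA of mouse acute myeloid leukaemia labelled RUNX1-FLT3ITD, in which FLT3-ITD denotes an activating internal duplication of the FLT3 receptor. Bone marrow of leukaemic mice was held for 22 h in serum-free medium with FLT3L, SCF, IL3 and IL11, and GFP+BFP+CD11b-Gr1- cells were the sorted population. The 4OHT group received 200 nM 4-hydroxytamoxifen, a ligand of modified oestrogen receptor domains, and held 1 Runx1 delta/delta and 1 Runx1 delta/+ library. The EtOH group received an equal volume of ethanol, the solvent, and likewise held 1 Runx1 delta/delta and 1 Runx1 delta/+ library. All cells were on a B6 background, all carried the FLT3-ITD label and the GFP and BFP reporters, and the delta/delta libraries are replicate 1 and the delta/+ libraries replicate 2. The labels do not state the protein that 4OHT acts on, the number of mice behind a library, or whether both libraries of 1 genotype share an animal. The p-values therefore measure the spread among these 4 libraries, which may be technical.

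DNA methylation in mammals is placed mainly on cytosines of CpG dinucleotides. DNMT1 copies it onto the new strand behind the replication fork, where UHRF1 recognises CpGs methylated on a single strand and recruits DNMT1, whereas DNMT3A and DNMT3B place it on unmethylated DNA. TET enzymes oxidise methylcytosine and need 2-oxoglutarate, which the normal IDH1 (cytosol) and IDH2 (mitochondria) produce from isocitrate; leukaemia-associated mutant IDH proteins instead produce 2-hydroxyglutarate, an inhibitor of TET enzymes. MBD4 removes thymine or uracil mispaired with guanine at CpGs. DNMT3A, TET2, IDH1 and IDH2 are recurrently mutated in acute myeloid leukaemia. RNA levels were measured here; methylation, protein and mutations were not.

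The promoters of the 3 genes that were higher with 4OHT (Dnmt3b, Idh1 and Idh2, below) are shown because CpGs, the substrate of the family, are dense in them. All sequences are RefSeq windows of build GRCm38.p6, from 250 bases before to 50 bases after an annotated start, written 5′ to 3′ on the gene's strand; the deposited values were made on another build and no coordinates were carried over. CpG dinucleotides are in capitals. Dnmt3b lies at chr2:153649199-153649498, plus strand, the first of the Idh1 starts at chr1:65186430-65186729, minus strand, and Idh2 at chr7:80115301-80115600, minus strand.
Dnmt3b: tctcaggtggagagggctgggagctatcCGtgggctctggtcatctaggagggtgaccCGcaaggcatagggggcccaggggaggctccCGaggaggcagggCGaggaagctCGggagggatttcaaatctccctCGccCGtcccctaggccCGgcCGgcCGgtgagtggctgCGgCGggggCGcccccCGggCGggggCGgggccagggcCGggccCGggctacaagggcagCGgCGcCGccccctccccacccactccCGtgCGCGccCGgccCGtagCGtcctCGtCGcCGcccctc
Idh1: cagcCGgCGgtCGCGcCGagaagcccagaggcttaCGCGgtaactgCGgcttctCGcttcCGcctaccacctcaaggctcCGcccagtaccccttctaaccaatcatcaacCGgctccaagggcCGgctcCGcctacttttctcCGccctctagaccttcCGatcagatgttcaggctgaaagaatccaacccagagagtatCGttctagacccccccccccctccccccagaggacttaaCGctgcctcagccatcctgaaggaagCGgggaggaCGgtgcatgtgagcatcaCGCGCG
Idh2: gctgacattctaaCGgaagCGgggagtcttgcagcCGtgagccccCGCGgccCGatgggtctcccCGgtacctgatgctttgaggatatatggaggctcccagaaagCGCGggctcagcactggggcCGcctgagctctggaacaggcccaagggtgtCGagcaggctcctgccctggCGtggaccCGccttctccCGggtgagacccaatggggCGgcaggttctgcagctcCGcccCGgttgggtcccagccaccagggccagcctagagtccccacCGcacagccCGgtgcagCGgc
The Dnmt3b window held 30 CpGs, more than 88.3% of the 32817 mouse promoter windows searched, in which the median was 7. The Idh1 window held 23 and the Idh2 window 20. Windows of the other genes described ranged from 2 CpGs (Dnmt1, first start) to 57 (Tet2). Dense CpGs were thus not particular to the 3 genes shown. Windows were also searched on both strands for RUNX words (TGTGGT or TGCGGT), the E-box CACGTG, E2F words (TTTCGCGC or TTTGGCGC), the STAT word TTCNNNGAA and GATA words (AGATAA or TGATAA), no 2 of which overlapped in these genes. Dnmt3b and Idh1 had none of them, and Idh2 had a single RUNX word beginning at position 28 after the start on the minus strand; 22.4% of all windows hold a RUNX word.

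Dnmt1 and Uhrf1, the maintenance pair, shared a sequence feature and are shown for that reason. Of all windows 0.814% hold an E2F word, and both genes had at least 1, here in capitals. The Dnmt1 window is the third of 3 annotated starts (chr9:20952574-20952873, minus strand) and the Uhrf1 window the second of 2 (chr17:56304063-56304362, plus strand).
Dnmt1: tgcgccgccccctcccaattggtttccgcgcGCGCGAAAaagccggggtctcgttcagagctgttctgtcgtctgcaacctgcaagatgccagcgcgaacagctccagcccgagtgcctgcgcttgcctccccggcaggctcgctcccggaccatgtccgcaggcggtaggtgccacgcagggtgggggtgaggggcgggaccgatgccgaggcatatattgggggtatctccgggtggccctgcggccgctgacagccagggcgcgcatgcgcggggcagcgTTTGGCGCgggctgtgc
Uhrf1: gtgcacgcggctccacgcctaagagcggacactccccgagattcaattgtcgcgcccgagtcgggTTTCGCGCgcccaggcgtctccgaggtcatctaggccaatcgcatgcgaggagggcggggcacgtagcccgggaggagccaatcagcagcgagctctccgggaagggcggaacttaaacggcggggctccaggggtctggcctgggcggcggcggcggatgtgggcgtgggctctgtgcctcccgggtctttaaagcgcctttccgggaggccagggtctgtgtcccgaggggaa
The Dnmt1 window had E2F words at -219 and 34 relative to the start, and the Uhrf1 window at -185. The other annotated starts of both genes had no E2F word, and the 0.814% is a share per window, not per gene. The E2F words themselves contain CpGs, and each of these windows held 33 CpGs, more than 91.4% of all windows. The share among windows equally rich in CpGs was not worked out, so the 0.814% does not say how rare a match is in them. The first Uhrf1 start had a RUNX word at -242. E2F factors drive genes of S phase; a match of letters is not a bound site.

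Mapped reads, worked out from the smallest RPKM steps, numbered 36727573 and 39408512 in the 4OHT libraries (delta/delta, then delta/+, as in all pairs that follow) and 34587718 and 33709508 in the EtOH libraries. Runx1, whose alleles define the genotypes, stood at 380 and 328 RPKM in 4OHT and 568 and 555 RPKM in EtOH; a value per gene does not resolve a deleted part, so it does not check the labels. Itgam, the gene of the sorted-out marker CD11b, lay between 0.168 and 0.358 RPKM. The 12 stem and progenitor markers summed to 303 and 234 RPKM in 4OHT and 422 and 460 RPKM in EtOH, and of 7 tested 3 were called higher and 2 lower with 4OHT. Levels within the list varied, up to 205 RPKM. Flt3 had 16.8 and 39.7 RPKM in 4OHT and 12.6 and 46.3 RPKM in EtOH, whereas Cd34 (0.0484 to 0.395 RPKM) was low. Kit, below the level tested, had 1.61 and 0.74 RPKM in 4OHT and 0.0781 and 0.0973 RPKM in EtOH. Markers of red cells differed greatly: 23 erythroid genes summed to 5883 and 4216 RPKM in 4OHT and to 66643 and 36369 RPKM in EtOH, and 22 of them were called lower with 4OHT. Of 14 lymphoid markers, Cd3e, Pax5, Ms4a1 and Ebf1 were among those at 0 in all libraries, and the summed list was 1.103 and 1.07 RPKM in 4OHT and 2.74 and 0.698 RPKM in EtOH. Summed granulocyte and monocyte markers were 63.2 and 23.7 RPKM in 4OHT and 51.8 and 22.7 RPKM in EtOH, and summed stromal and endothelial markers 3.66 and 12.1 RPKM in 4OHT and 2.27 and 8.18 RPKM in EtOH. Summed mast cell and basophil markers were 289 and 92.1 RPKM in 4OHT and 193 and 198 RPKM in EtOH, and of 7 tested 3 were called higher and 0 lower with 4OHT (3 and 1 with median-ratio scaling). Beside these marker counts, 22.2% of all genes tested were called higher and 10.2% lower with 4OHT.

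The 10 genes covered a wide range of levels. By the mean of the 4 libraries Dnmt1 was highest at 99.1 RPKM (SD 8.74, n = 4) and Uhrf1 next at 87.5 RPKM (SD 29.7), followed by Idh2 (45.7 RPKM, SD 18.5), Idh1 (18.0 RPKM, SD 9.21), Tet3 (8.61 RPKM, SD 1.87), Mbd4 (8.46 RPKM, SD 1.999), Dnmt3b (7.56 RPKM, SD 6.64), Tet2 (3.41 RPKM, SD 0.55), Dnmt3a (2.11 RPKM, SD 0.212) and Tet1 (0.126 RPKM, SD 0.0825). These SDs span both treatments and both genotypes. The ranges of neighbours in this order overlapped, except that Tet2 lay above Dnmt3a and Dnmt3a above Tet1 in their full ranges. The maintenance genes were thus above the de novo genes and the TET genes in every library, and Tet1 was below all others in every library.

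**Figure D1:**
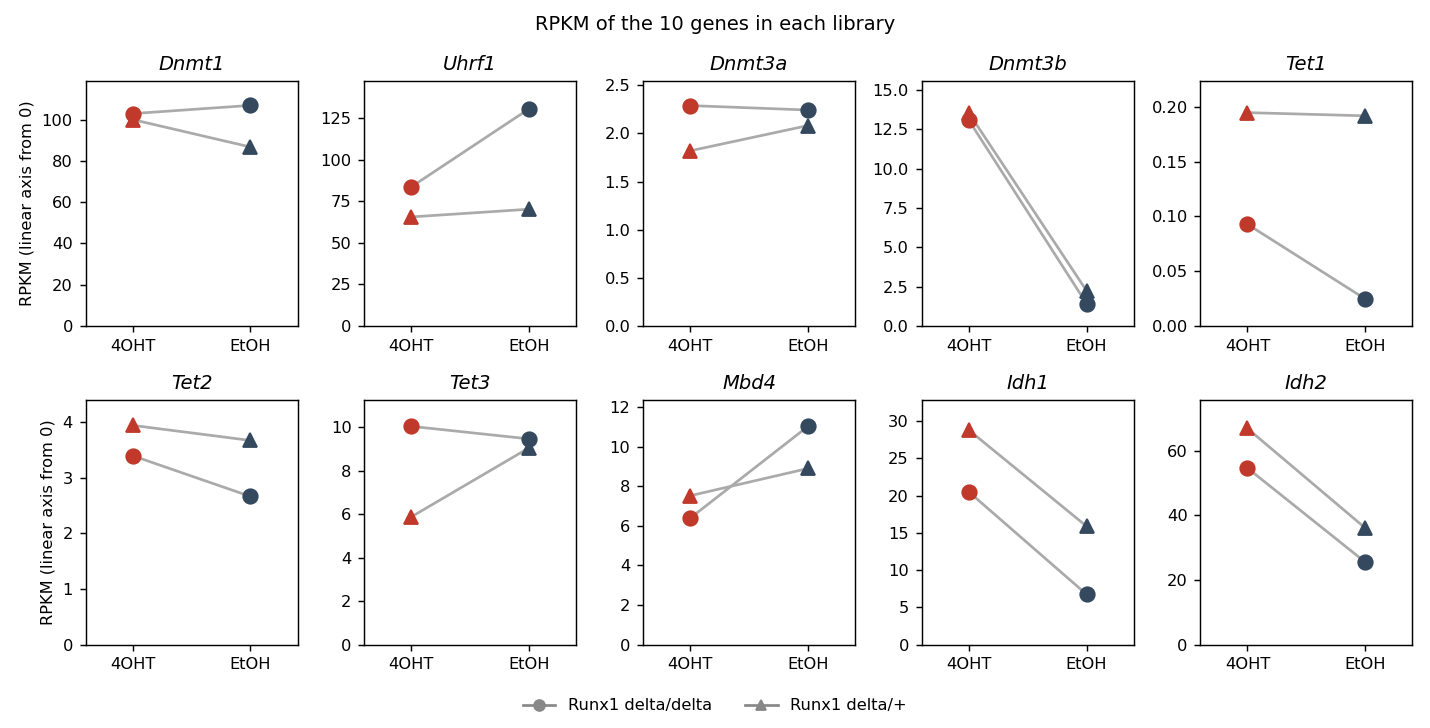
RPKM of each gene (vertical axes, linear and starting at 0, with a separate scale for each gene) in the 4OHT and EtOH libraries; circles are Runx1 delta/delta, triangles Runx1 delta/+, and a line joins the libraries of a genotype. Dnmt3b stood at 13.1 and 13.5 RPKM in 4OHT against 1.42 and 2.23 RPKM in EtOH, and Idh1 and Idh2 were higher in 4OHT in both genotypes.

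Which of these transcripts differed after 22 h with 4OHT was the first question. Dnmt3b, Idh1 and Idh2 rose, and the other 6 genes tested did not pass. In limma on log2(RPKM + 1), with treatment and genotype as terms and Benjamini-Hochberg adjustment over all genes, 3 of 9 were called higher and 0 of 9 lower, where 32.4% of the 9595 genes tested were called, 22.2% higher and 10.2% lower. A count of 3 against that background does not set these genes apart as a group; the median over the 9 was 0.07 on the log2 scale, and 0.16 over every gene tested. In bulk RNA, fewer cells of a type and less RNA per cell cannot be told apart, and erythroid RNA differed between the same groups as given above; its part in these changes was not tested. With libraries scaled to the same sum without globin genes, the same 3 genes were called. That scaling changes library totals only, so it does not remove a difference in erythroid RNA and cannot decide its part.

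Dnmt3b, the de novo methyltransferase gene, had the largest change of the 10. It had 13.1 and 13.5 RPKM in 4OHT (2075 and 2306 reads), against 1.42 and 2.23 RPKM in EtOH (212 and 325 reads). Both 4OHT libraries lay far above both EtOH libraries, a separation in that direction that Idh1 and Idh2 also had and that 38.4% of all genes tested had, and the genotypes were close to each other under 4OHT. The fold of 4OHT over EtOH was 9.22 in delta/delta (95% interval 7.999 to 10.7) and 6.07 in delta/+ (5.40 to 6.84); these exact binomial intervals cover counting error only and compare single libraries. The fitted log2 change was 2.36 (SE 0.165, higher in both pairs, limma adjusted p = 0.0023), and 48 of the 9595 genes tested had a larger one. Without the genotype term (no replicate block) the call held at a limma adjusted p of 0.033. It was lost when EtOH replicate 1 was also left out (log2 change 2.15, limma adjusted p = 0.0914), and over all 12 alternatives the adjusted p ran from 0.00267 to 0.0914. Dnmt3b makes many splice forms, some without catalytic activity, which a value per gene does not separate.

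Dnmt3a, the other de novo methyltransferase gene, had 2.29 and 1.82 RPKM in 4OHT and 2.24 and 2.08 RPKM in EtOH. The groups overlapped, and the log2 change was -0.05 (SE 0.171, limma adjusted p = 0.829). The Dnmt3b share of the summed Dnmt3a and Dnmt3b RPKM was 85.1% and 88.2% in 4OHT, against 38.7% and 51.7% in EtOH. Summed de novo RPKM was 15.4 in both 4OHT libraries and 3.66 and 4.31 in EtOH. Dnmt1 thus had 7.87 and 7.39 times the RPKM of Dnmt3b in 4OHT and 75.3 and 38.9 times in EtOH.

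Idh1, the cytosolic NADP-dependent enzyme gene, had 20.5 and 28.8 RPKM in 4OHT (1835 and 2766 reads), against 6.72 and 15.9 RPKM in EtOH (567 and 1304 reads). The groups did not overlap, though delta/delta was the lower genotype under either treatment. The fold was 3.05 in delta/delta (2.77 to 3.35) and 1.81 in delta/+ (1.70 to 1.94), and the log2 change 1.15 (SE 0.20, higher in both pairs, limma adjusted p = 0.0126). Dropping the genotype term ended the call (no replicate block, limma adjusted p = 0.177), and without EtOH replicate 1 and that term the log2 change was 0.59 (limma adjusted p = 0.53, with a range of 0.0152 to 0.53 over 12 alternatives).

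Idh2, the mitochondrial counterpart, had 54.6 and 66.8 RPKM in 4OHT (3409 and 4479 reads), against 25.5 and 36.0 RPKM in EtOH (1498 and 2065 reads). Again the groups did not overlap and delta/delta was the lower genotype under either treatment. The fold was 2.14 in delta/delta (2.02 to 2.28) and 1.86 in delta/+ (1.76 to 1.96), and the log2 change 0.97 (SE 0.14, higher in both pairs, limma adjusted p = 0.00806). The call was lost without the genotype term (no replicate block, limma adjusted p = 0.0939, with a range of 0.00981 to 0.372 over 12 alternatives). Idh2 RPKM was 2.66 and 2.32 times that of Idh1 in 4OHT and 3.79 and 2.27 times in EtOH.

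**Figure D2:**
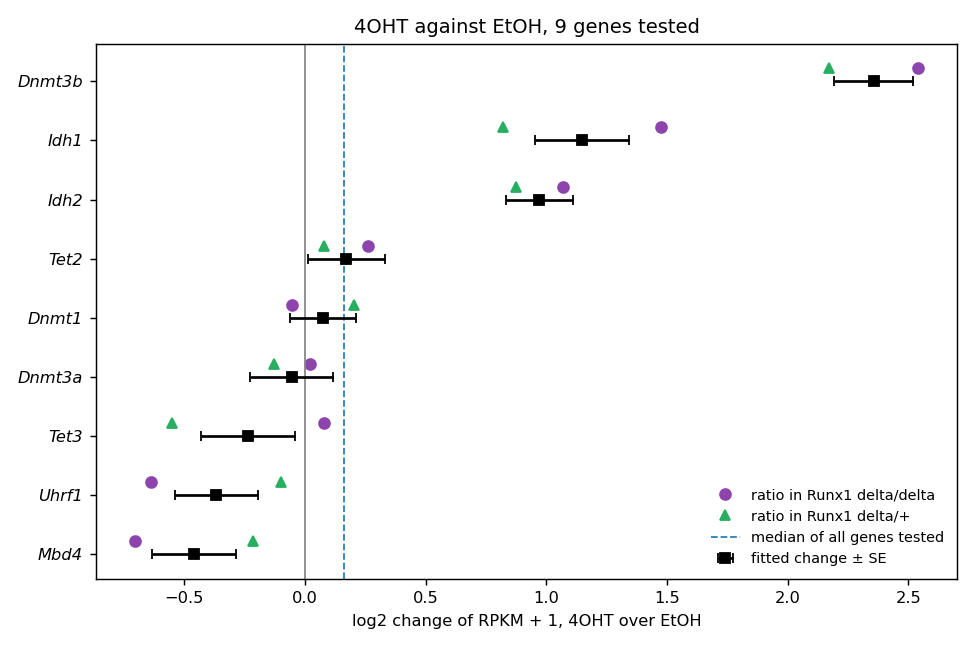
Log2 change of RPKM + 1, 4OHT over EtOH (horizontal axis), for the 9 genes tested: squares are the fitted changes with bars of 1 SE, purple circles the ratio in Runx1 delta/delta and green triangles that in Runx1 delta/+; the dashed line is the median of all genes tested (0.16). Dnmt3b (2.36), Idh1 (1.15) and Idh2 (0.97) stand to the right in both genotypes, and the fitted changes of the other 6 lie between -0.46 and 0.17.

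The maintenance genes did not pass. Dnmt1 had 103 and 99.99 RPKM in 4OHT and 107 and 86.7 RPKM in EtOH, overlapping groups with a log2 change of 0.07 (SE 0.14, limma adjusted p = 0.703), which became -0.13 with median-ratio scaling. Uhrf1 had 83.7 and 65.6 RPKM in 4OHT and 131 and 70.2 RPKM in EtOH, with the EtOH delta/delta library above the other 3. Its log2 change was -0.37 (SE 0.17, limma adjusted p = 0.157), with 4OHT below EtOH in each genotype. S phase genes, whose products are made in the same phase as these proteins act, are given beside them: 5 of 24 were called lower and 0 higher with 4OHT, where 10.2% of all genes tested were called lower. The count was 8 lower with median-ratio scaling and with scaling without globin genes, and 0 with no replicate block, and the list summed to 2240 and 1893 RPKM in 4OHT and 3148 and 2193 RPKM in EtOH. The part of S phase in the Uhrf1 values was not tested.

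None of the TET genes tested passed. Tet3 had 10.05 and 5.88 RPKM in 4OHT and 9.47 and 9.06 RPKM in EtOH, the delta/+ 4OHT library being lower than the other 3 (log2 change -0.24, SE 0.19, limma adjusted p = 0.387). Tet2 had 3.39 and 3.94 RPKM in 4OHT and 2.66 and 3.67 RPKM in EtOH, overlapping groups with a log2 change of 0.17 (SE 0.16, limma adjusted p = 0.441). Tet3 made up 74.2% and 58.7% of the summed TET RPKM in 4OHT and 77.9% and 70.1% in EtOH, and the sum was 13.5 and 10.01 RPKM in 4OHT and 12.2 and 12.9 RPKM in EtOH. Tet1 had 0.0928 and 0.195 RPKM in 4OHT (48 and 108 reads) and 0.0246 and 0.192 RPKM in EtOH (12 and 91 reads). It was below the level tested; with no filter on low values its log2 change was 0.05 (limma adjusted p = 0.496).

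Mbd4 had 6.39 and 7.53 RPKM in 4OHT and 11.04 and 8.91 RPKM in EtOH. Both 4OHT libraries lay below both EtOH libraries, which also held for 16.9% of all genes tested, but the change did not pass (log2 change -0.46, SE 0.17, limma adjusted p = 0.0959). Folds of single libraries within a genotype stand in the authors' deposited table, where Dnmt3b had a fold of 9.82 (FDR 0.0382) in delta/delta and 6.28 (FDR 0.137) in delta/+. In the authors' deposited table Idh2 had 2.28 (FDR 0.0128) and 1.92 (FDR 0.065), and Idh1 3.25 (FDR 0.105) and 1.88 (FDR 0.777), in the same order.

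The genotypes, Runx1 delta/delta and Runx1 delta/+, were compared within the same model. None of the 9 genes tested was called (0 of 9 in limma and 0 of 9 by limma voom on the recovered reads), where 11.6% of all genes tested were called, 4.68% higher and 6.91% lower in delta/delta; at an unadjusted p under 0.05 limma gave 3, namely Uhrf1, Idh1 and Idh2. Idh1 came nearest, with 20.5 RPKM (4OHT) and 6.72 RPKM (EtOH) in delta/delta and 28.8 RPKM (4OHT) and 15.9 RPKM (EtOH) in delta/+. It was lower in delta/delta under both treatments (log2 change -0.80, SE 0.20, limma adjusted p = 0.0581), and was called when libraries were scaled without globin genes (log2 change -0.93, limma adjusted p = 0.0389, with a range of 0.0389 to 1 over 12 alternatives). It was -0.0606 without EtOH replicate 1 and -1.54 without 4OHT replicate 1, both fitted without the treatment term. Uhrf1 had 83.7 RPKM (4OHT) and 131 RPKM (EtOH) in delta/delta, above the 65.6 RPKM (4OHT) and 70.2 RPKM (EtOH) in delta/+ (log2 change 0.62, SE 0.17, limma adjusted p = 0.0756). Its change ran from 0.30 to 0.93 when each library was left out in turn. Those fits also lacked the treatment term, so part of the 4OHT difference entered them. Idh2 had a log2 change of -0.39 (SE 0.14, limma adjusted p = 0.125).

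Both delta/delta libraries lay above both delta/+ libraries for Dnmt1, Dnmt3a, Uhrf1 and Tet3, and below them for Tet1 and Tet2; 17.0% of all genes tested lay wholly above and 21.4% wholly below. Among those tested the differences were small other than for Uhrf1: Dnmt1 had a log2 change of 0.17 (limma adjusted p = 0.429), Dnmt3a 0.15 (limma adjusted p = 0.58), Tet3 0.37 (limma adjusted p = 0.245) and Tet2 -0.26 (limma adjusted p = 0.308). Tet1 is not in the set tested and rested on 12 to 108 reads per library. With no filter on low values its log2 change between genotypes was -0.17 (limma adjusted p = 0.101). The S phase genes were called higher in delta/delta for 3 of 24 members and lower for 0 of 24, with a list median of 0.38 on the log2 scale. Of 18 granulocyte and monocyte markers found only 5 were tested, and 4 of these were called higher. The shares of all genes tested were 4.68% higher and 6.91% lower in delta/delta. Of 23 erythroid markers 6 were higher and 1 lower in delta/delta, with sums of 5883 RPKM (4OHT) and 66643 RPKM (EtOH) in delta/delta and 4216 RPKM (4OHT) and 36369 RPKM (EtOH) in delta/+. The part of these lists in the values of the 10 genes was not tested. Replicate numbers coincide with genotypes, so genotype and any difference between the replicate runs cannot be told apart. Whether the responses to 4OHT differed between genotypes could not be tested, since such a model leaves no residual degree of freedom.

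**Figure D3:**
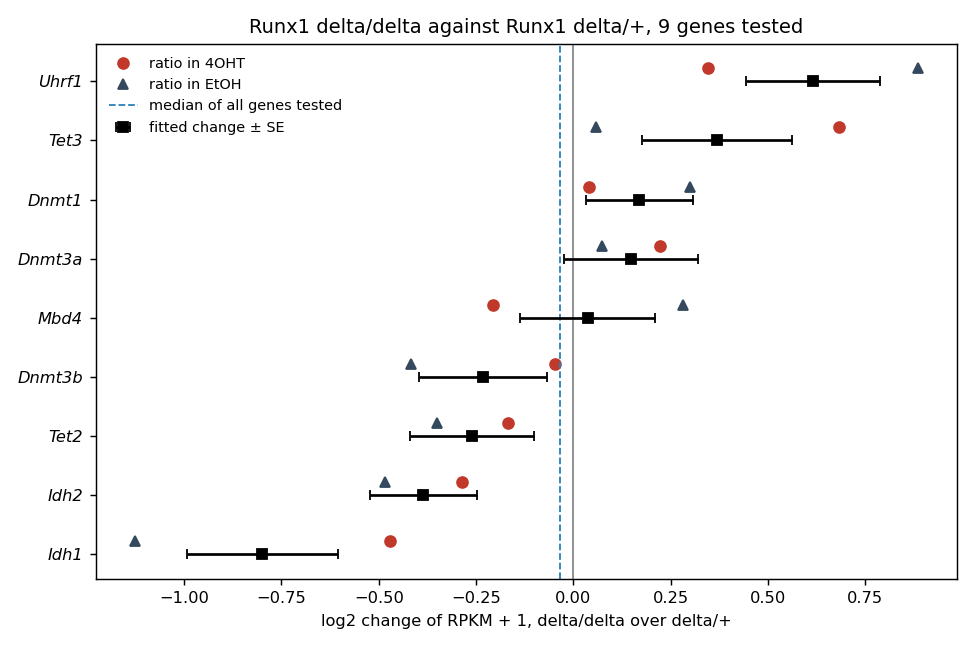
Log2 change of RPKM + 1, Runx1 delta/delta over Runx1 delta/+ (horizontal axis), for the 9 genes tested: squares are fitted changes with bars of 1 SE, red circles the ratio in 4OHT and dark triangles the ratio in EtOH; the dashed line is the median of all genes tested (-0.03). Uhrf1 (0.62) and Idh1 (-0.80) are the outermost, and none passed the test.

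Other genes that act with the methyltransferases moved in both directions with 4OHT. Of 17 partner genes 16 were tested, 3 were called higher and 3 lower, with a median log2 change of 0.04. Among all genes tested 22.2% were called higher and 10.2% lower, so a count of 3 higher does not set this list apart. Cdca7, which with the remodeller gene Hells and with Dnmt3b is mutated in humans in an inherited syndrome of lost DNA methylation, had 61.1 and 70.0 RPKM in 4OHT and 25.5 and 40.0 RPKM in EtOH, groups that did not overlap (log2 change 1.01, SE 0.16, limma adjusted p = 0.0106). Hells had 22.1 and 43.6 RPKM in 4OHT and 26.1 and 34.3 RPKM in EtOH (limma adjusted p = 0.842). Trim28, a corepressor that directs methylation to retroelements, rose (81.7 and 91.7 RPKM in 4OHT, 48.8 and 56.2 RPKM in EtOH, limma adjusted p = 0.0142), and the third rise was Cdca7l. Pcna, the replication clamp, fell (393 and 340 RPKM in 4OHT, 650 and 457 RPKM in EtOH, limma adjusted p = 0.0235), as did the ligase gene Lig1 and Whsc1, the histone methyltransferase gene now called Nsd2. With median-ratio scaling 2 were higher and 3 lower.

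Of 9 genes of methyl-CpG binding proteins 8 were tested, 0 were called higher and 2 lower, with a median log2 change of -0.09. The shares over all genes tested were 22.2% higher and 10.2% lower. Mbd2, a subunit gene of the NuRD corepressor, had 124 and 107 RPKM in 4OHT and 176 and 195 RPKM in EtOH (log2 change -0.68, SE 0.14, limma adjusted p = 0.0207). Both 4OHT libraries lay below both EtOH libraries. Mbd3, the alternative NuRD subunit gene, had 76.3 and 63.7 RPKM in 4OHT and 53.0 and 51.2 RPKM in EtOH and did not pass (limma adjusted p = 0.0695).

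Of 18 genes of TET partners and of the repair that completes demethylation 14 were tested. With 4OHT 6 were called higher and 2 lower, with a median log2 change of 0.22, and with median-ratio scaling the counts were 5 and 3. By comparison, 22.2% of all genes tested were called higher and 10.2% lower. Apex1, the abasic-site endonuclease, had 134 and 101 RPKM in 4OHT and 46.1 and 42.4 RPKM in EtOH (limma adjusted p = 0.00462), and Parp1, a sensor of strand breaks, 68.4 and 67.3 RPKM in 4OHT and 24.8 and 30.6 RPKM in EtOH (limma adjusted p = 0.00587). Cxxc5, a CXXC-domain protein that binds unmethylated CpGs, rose to 2.54 and 7.29 RPKM in 4OHT, against 0.0764 and 1.76 RPKM in EtOH (limma adjusted p = 0.00462). Its EtOH libraries alone average below the 1 RPKM required, so Cxxc5 was tested only through its 4OHT values. The same held for Gadd45b (0.731 and 0.609 RPKM in EtOH) and Smug1 (0.512 and 1.33 RPKM in EtOH), also among the 6 called higher. Gadd45a, a stress-induced gene linked to demethylation, had 3.09 and 2.11 RPKM in 4OHT and 23.0 and 16.0 RPKM in EtOH (log2 change -2.50, limma adjusted p = 0.00176). Tdg, the glycosylase gene for oxidised methylcytosine, named after its values were seen, had 29.0 and 28.9 RPKM in 4OHT and 19.6 and 26.4 RPKM in EtOH and did not pass (limma adjusted p = 0.168). Between genotypes Ogt, whose product O-GlcNAc transferase binds TET proteins, was lower in delta/delta (9.29 RPKM in 4OHT and 12.3 RPKM in EtOH) than in delta/+ (29.8 RPKM in 4OHT and 40.5 RPKM in EtOH; log2 change -1.61, SE 0.13, limma adjusted p = 0.0126), and Gadd45g was higher in delta/delta (log2 change 1.36, limma adjusted p = 0.0204).

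Genes that supply the methyl donor S-adenosylmethionine had 7 members called higher and 1 lower of 21 tested (22 listed), with a median log2 change of 0.23. For all genes tested the shares were 22.2% higher and 10.2% lower, and the median was 0.16. Shmt1, a serine hydroxymethyltransferase that charges folate, had 36.5 and 47.6 RPKM in 4OHT and 8.65 and 14.5 RPKM in EtOH (log2 change 1.80, SE 0.15, limma adjusted p = 0.00315). Mtap, which salvages methionine, had 36.6 and 43.0 RPKM in 4OHT and 7.96 and 19.07 RPKM in EtOH (limma adjusted p = 0.00949), and Mat2a, which makes S-adenosylmethionine, 77.7 and 124 RPKM in 4OHT and 39.1 and 79.9 RPKM in EtOH (limma adjusted p = 0.0153). With median-ratio scaling 4 were higher and 2 lower. Mat2a and Amd1 were lower in delta/delta than in delta/+ (log2 changes -0.84 and -1.02, limma adjusted p = 0.0334 and 0.029).

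Of 27 genes of the tricarboxylic acid cycle and 2-oxoglutarate metabolism 26 were tested, 12 were called higher and 0 lower, where 22.2% of all genes tested were called higher and 10.2% lower, and the list median was 0.39 on the log2 scale. This split depended on the scaling: 5 were higher and 2 lower with median-ratio scaling, and 9 higher and 1 lower with libraries scaled without globin genes. Idh3a, the catalytic subunit gene of the NAD-dependent isocitrate dehydrogenase, had 51.2 and 70.5 RPKM in 4OHT and 21.7 and 32.9 RPKM in EtOH, groups that did not overlap (log2 change 1.14, SE 0.13, limma adjusted p = 0.00591). The other subunit genes, named after their values were seen, did not pass (Idh3b with a log2 change of 0.31, limma adjusted p = 0.119; Idh3g with 0.22, limma adjusted p = 0.259). Cs (citrate synthase), Got1 (an aspartate aminotransferase) and Suclg2 (a succinyl-CoA ligase subunit) rose by 0.69, 0.76 and 0.95 on the log2 scale (limma adjusted p = 0.0136, 0.0136 and 0.0162). Without the genotype term none of the members of the partner, S-adenosylmethionine, tricarboxylic acid and methyl-CpG lists was called for 4OHT, and of the demethylation list 1 was, lower.

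**Figure D4:**
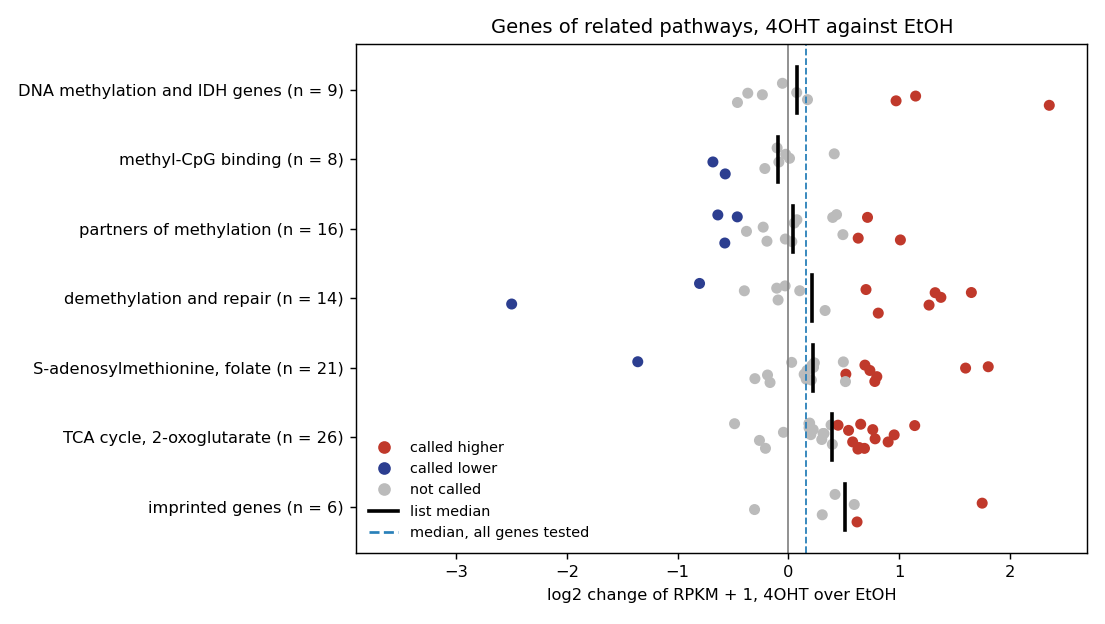
Log2 change of RPKM + 1, 4OHT over EtOH (horizontal axis), for tested genes of the 10 described and of 6 related lists (rows, with the number tested); red points were called higher, blue lower and grey not called, black bars are list medians and the dashed line is the median of all genes tested (0.16). Vertical scatter within a row has no meaning; the tricarboxylic acid row has 12 red and 0 blue points, and the methyl-CpG row 0 red and 2 blue.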

How the data were processed

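RNA sequencing of 4 libraries gave 1 expression value per gene and library. Per the labels' protocols, RNA came from sorted cells and a TruSeq or a NEBNext kit was used, without saying which library had which. The build was mm9, per the submitters' processing notes; the sources used here do not state aligner, counting rule, annotation or strand. Per the file headers, the authors deposited RPKM per library and, for each replicate number, a signed fold of proportions (a score that is negative where 4OHT is lower), p-values and FDR-corrected p-values from Kal's test on proportions; recomputation from the RPKM columns gave the same folds (13149 of 13149 and 12844 of 12844 rows within a relative tolerance of 0.0001). That test treats RPKM as counts.

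Dividing each RPKM by what 1 read adds to that gene gave whole reads for 17213 of 17213 genes above 0 (100%, tolerance 0.001 reads), with totals fixed by 120 of 465 single-transcript genes that share a total. In a 1 kb gene, 1 read equals 0.0254 to 0.0297 RPKM. Intervals on folds (95%, exact binomial) cover counting error only. limma 3.58.1 (R 4.3.3) was fitted to log2(RPKM + 1), which understates the change of low genes, for the 9595 genes averaging 1 RPKM or more, with treatment and genotype as terms, a trended prior, two-sided p-values and a threshold of 0.05 after Benjamini-Hochberg adjustment over all of them; 1 residual degree of freedom was joined by 4.37 from the prior. The script was tested on simulated data. Genotype equals the replicate number; libraries sharing a number come from the same genotype and shifted in the same direction around the treatment means (r = 0.664 across genes). No library duplicated another (pairwise correlations 0.869 to 0.964).

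The 10 genes, the related lists and the motifs were chosen with earlier results of these data known. Named list genes were the 4 with the smallest p for 4OHT and the 2 with the smallest p for genotype in each list, and not all are named; Cdca7l, Lig1, Hells and other exceptions illustrate a count. Of list entries, 3 were found by an older symbol in RefSeq. All 10 genes had a RefSeq promoter. Alternatives were another pseudocount (0.1 RPKM), no filter or one at 5 RPKM, median-ratio scaling, scaling without globin genes, no genotype term, a prior without a trend, leaving out each library, and, added after seeing the data, limma voom on the recovered reads. Values of some list genes are not reported here.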

Additional observations from a re-analysis of the deposited data

Results flagged for a closer look

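For 3 of the genes the ratio of 4OHT to EtOH had opposite signs in the genotypes, which was not tested. In the delta/delta genotype the log2 ratio of Tet3 was 0.08 and in delta/+ it was -0.55, a difference of 0.63. For Dnmt1 it was -0.05 in delta/delta and 0.20 in delta/+, a difference of -0.26. For Dnmt3a it was 0.02 in delta/delta and -0.13 in delta/+, a difference of 0.15. Of all genes tested 1794 of 9595 (18.7%) had opposite signs, and each genotype holds 1 library per treatment.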

How the results depend on the processing

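Dnmt3b, Idh1 and Idh2 were the genes called with 4OHT under each of the 7 alternatives that kept all 4 libraries and the genotype term, limma voom among them. Of these, the filter at 5 RPKM is no support for Dnmt3b. That gene passed it only through 4OHT (13.1 and 13.5 RPKM, against 1.42 and 2.23 RPKM in EtOH). With no replicate block, that is without genotype in the model, 233 genes passed for 4OHT against 3113 with it, and 1 of the 9 genes described, Dnmt3b; for genotype 0 genes passed without the treatment term (880 at an unadjusted p under 0.05) against 1112. Leaving out a library also needs that simpler model: 3 to 245 genes passed for 4OHT and 0 to 1 of the genes described, and 0 genes passed for genotype (169 to 627 at an unadjusted p under 0.05). The count of 3 came without EtOH replicate 1. For genotype 646 genes passed with a filter at 5 RPKM, where fewer were tested, and 0 with no filter (3906 at an unadjusted p under 0.05); the cause was not tested. With libraries scaled without globin genes 1 gene described, Idh1, was called for genotype. For 4OHT, median-ratio scaling gave 1221 higher and 1325 lower calls, against 2130 and 983, and moved the median of all genes from 0.16 to -0.02.

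Changes that were not called reversed in places. Dnmt1 with 4OHT became -0.13 with median-ratio scaling, and Mbd4 between genotypes became -0.032 by limma voom and -0.088 with scaling without globin genes. When each library was left out in turn, the log2 change with 4OHT ran from -0.0746 to 0.22 for Dnmt1, -0.17 to 0.0573 for Dnmt3a, -0.003 to 0.35 for Tet2, -0.58 to 0.11 for Tet3 and -0.81 to 0.0762 for Uhrf1. Between genotypes it ran from -1.50 to 1.04 for Dnmt3b, -1.54 to -0.0606 for Idh1 (not reversed), -0.92 to 0.15 for Idh2 and -0.31 to 0.39 for Mbd4. Each fit with a library left out lacked the other factor as a term and was unbalanced in it. Part of the 4OHT difference thus entered the genotype change, and part of the genotype difference the 4OHT change. These ranges therefore do not measure how stable either difference is by itself. The cause of the reversals under the other settings was not tested.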

Other observations

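Germline genes known to be silenced by promoter methylation were close to undetected. Of 20, 8 were at 0 in all libraries, and the highest value was 0.481 RPKM, that of the germ cell helicase gene Ddx4 in the 4OHT delta/+ library. The list summed to 0.553 and 0.885 RPKM in 4OHT (delta/delta, then delta/+) and 0.176 and 0.342 RPKM in EtOH, and none of its genes reached the level tested. Of 24 imprinted genes 6 were tested and 5 (H19, Nnat, Dlk1, Nap1l5 and Kcnq1ot1) were at 0 in all libraries. With 4OHT 2 of the 6 were called higher and 0 lower, where 22.2% of all genes tested were called higher and 10.2% lower. Phlda2, a growth-restraining imprinted gene, rose with 4OHT (9.09 and 7.92 RPKM in 4OHT, 2.20 and 1.49 RPKM in EtOH; log2 change 1.75, SE 0.15, limma adjusted p = 0.0032), as did Inpp5f (limma adjusted p = 0.0432); with median-ratio scaling 1 imprinted gene was higher and 1 lower.

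Genes outside DNA methylation that are often mutated in myeloid leukaemia were tested for 29 of 31 members. With 4OHT 4 were called higher and 1 lower (2 and 5 with median-ratio scaling), where 22.2% of all genes tested were higher and 10.2% lower. Between genotypes 0 were higher and 7 lower in delta/delta (0 and 4 with median-ratio scaling), where 4.68% of all genes tested were higher and 6.91% lower. Cebpa, a regulator of granulocyte fate, had 10.3 and 4.84 RPKM in 4OHT and 1.08 and 1.101 RPKM in EtOH (limma adjusted p = 0.00704). Npm1, the nucleolar chaperone gene, was lower in delta/delta (448 RPKM in 4OHT and 231 RPKM in EtOH) than in delta/+ (1014 RPKM in 4OHT and 656 RPKM in EtOH; log2 change -1.34, SE 0.13, limma adjusted p = 0.0126).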
